A study of Mus musculus with 8 samples.

Results

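The genes described here encode collagens, laminins, nidogens and the glycoproteins laid down with them in the extracellular matrix. They are the genes whose single symbol in the platform annotation is a collagen chain, a laminin alpha, beta or gamma chain, or 1 of 14 named matrix genes, Fn1, Tnc and Sparc among them. Of 14351 genes on the arrays, 56 were found by this rule, each on 1 row, and the rule itself uses names and no measured values, though it was drawn up with earlier results of these data known. Hspg2 and Fbn1, which the rule also names, are not analysed here. RNA was measured on Affymetrix whole-transcript arrays, 1 per sample, in 3 groups of mice. Gli1-FLAG granule neuron precursors (GNPs, 2 samples) came from postnatal day 8 litters of RosaGli1-FLAG c/c mice crossed to Math1Cre, so that a FLAG-tagged Gli1 is switched on where Math1 drives Cre. Ptc+/- GNPs (2 samples) came from Ptc+/- mice of the same age, and 4 medulloblastomas came from adults of the genotype RosaGli1-FLAG c/c;Math1-Cre;Ptc+/-. Every group thus carries an alteration of hedgehog signalling, and none is wild type. GNPs were purified from dissected cerebella, per the labels' protocols, and no purification of the tumours is described, so age and preparation go with the disease.

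A basement membrane is a thin sheet of matrix in which a laminin network and a type 4 collagen network are joined by nidogens and by heparan sulphate proteoglycans such as agrin. In brain it surrounds blood vessels and covers the surface under the meninges, where endothelial cells, pericytes, fibroblasts and astrocyte endfeet make it. Granule neuron precursors divide in the outer cerebellum directly beneath the meningeal basement membrane, and laminins of that sheet are known to favour their response to Sonic hedgehog. Fibrillar collagens come mainly from fibroblasts, while tenascins belong to the soft matrix between neural cells.

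Median deposited intensity ran from 109 to 310 per array, so values were quantile normalized, and every level below is log2(normalized intensity + 1). Where groups are not named, values run over Ptc+/- GNPs 1 and 2, Gli1-FLAG GNPs 1 and 2, and medulloblastomas 1 to 4. Levels of different genes come from different probes and are not set against each other. As a guide to background, the Y-linked Eif2s3y and Kdm5d, which had little signal on the Gli1-FLAG arrays, reached at most 4.54 there. This guide rests on 2 genes, and the background of other probes may differ. Both genes were also at 4.55 on medulloblastoma 3 and at 7.39 to 9.01 on the other 5 arrays, so Y-linked signal differs between the GNP genotypes and among the tumours, and its part in any result was not tested. Col24a1, which encodes a fibrillar collagen, was at or under 4.54 on all 8 arrays. Atoh1, the transcription factor gene that marks GNPs, was between 9.03 and 9.43 on the GNP arrays and between 10.84 and 11.99 in tumours. The GNP samples also held transcripts of other cells. The endothelial adhesion gene Pecam1 was at 8.57 and 7.41 in Ptc+/- GNPs, at 8.03 and 7.88 in Gli1-FLAG GNPs, and between 5.84 and 6.17 in tumours. In bulk RNA, fewer cells of a type and less RNA per cell cannot be told apart.

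Matrix genes were lower in tumours than in Ptc+/- GNPs more often than higher. Of the 56 genes 12 fell and 2 rose past an adjusted p of 0.05 in limma, while 42 did not pass. That is 21.4% falling and 3.57% rising, against 8.92% and 7.54% of all rows of the table. The median log2 fold change was -0.37, beside 0.01 over all rows. With arrays centred on their medians instead, it was -0.12 beside 0.13 over all rows. The largest fall was that of Tnc, 7.52-fold, and the larger of the 2 rises was that of Mgp, 3.80-fold. All 4 tumours lay below both Ptc+/- GNP arrays for 20 genes and above both for 4, where 22.1% and 19.9% of all rows did so. At an unadjusted p under 0.05 there were 21 genes (37.5%, against 33.3% of all rows). Without Ptc+/- GNP replicate 1, the count was 1 fall and 0 rises (0.404% and 0.38% of all rows), where the spread of the lone array left is taken from the other groups. Leaving out replicate 2 also leaves a lone array, and most falls were then larger. Lamb1 was at -0.77 without replicate 1 and at -2.20 without replicate 2, Nid2 at -0.85 and -2.34, and Lama4 at -1.18 and -2.61. Of the 12 genes that fell, only Mfap4 (-2.14 and -1.93) and Col9a1 (-0.94 and -0.77) fell less without replicate 2. The Gli1-FLAG arrays enter only the shared spread and the normalization. Leaving out the first or the second gave 7 or 6 falls (4.12% and 4.11% of all rows) and 0 rises (3.42% and 3.41%), and the arrays of the 2 groups alone gave 6 falls (3.99%) and 0 rises (3.35%). Rises numbered 0 without Ptc+/- GNP replicate 2 (1.25% of all rows), and 1 without medulloblastoma 1, 2 or 4 (4.8%, 6.68% and 8.09%).

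**Figure D1:**
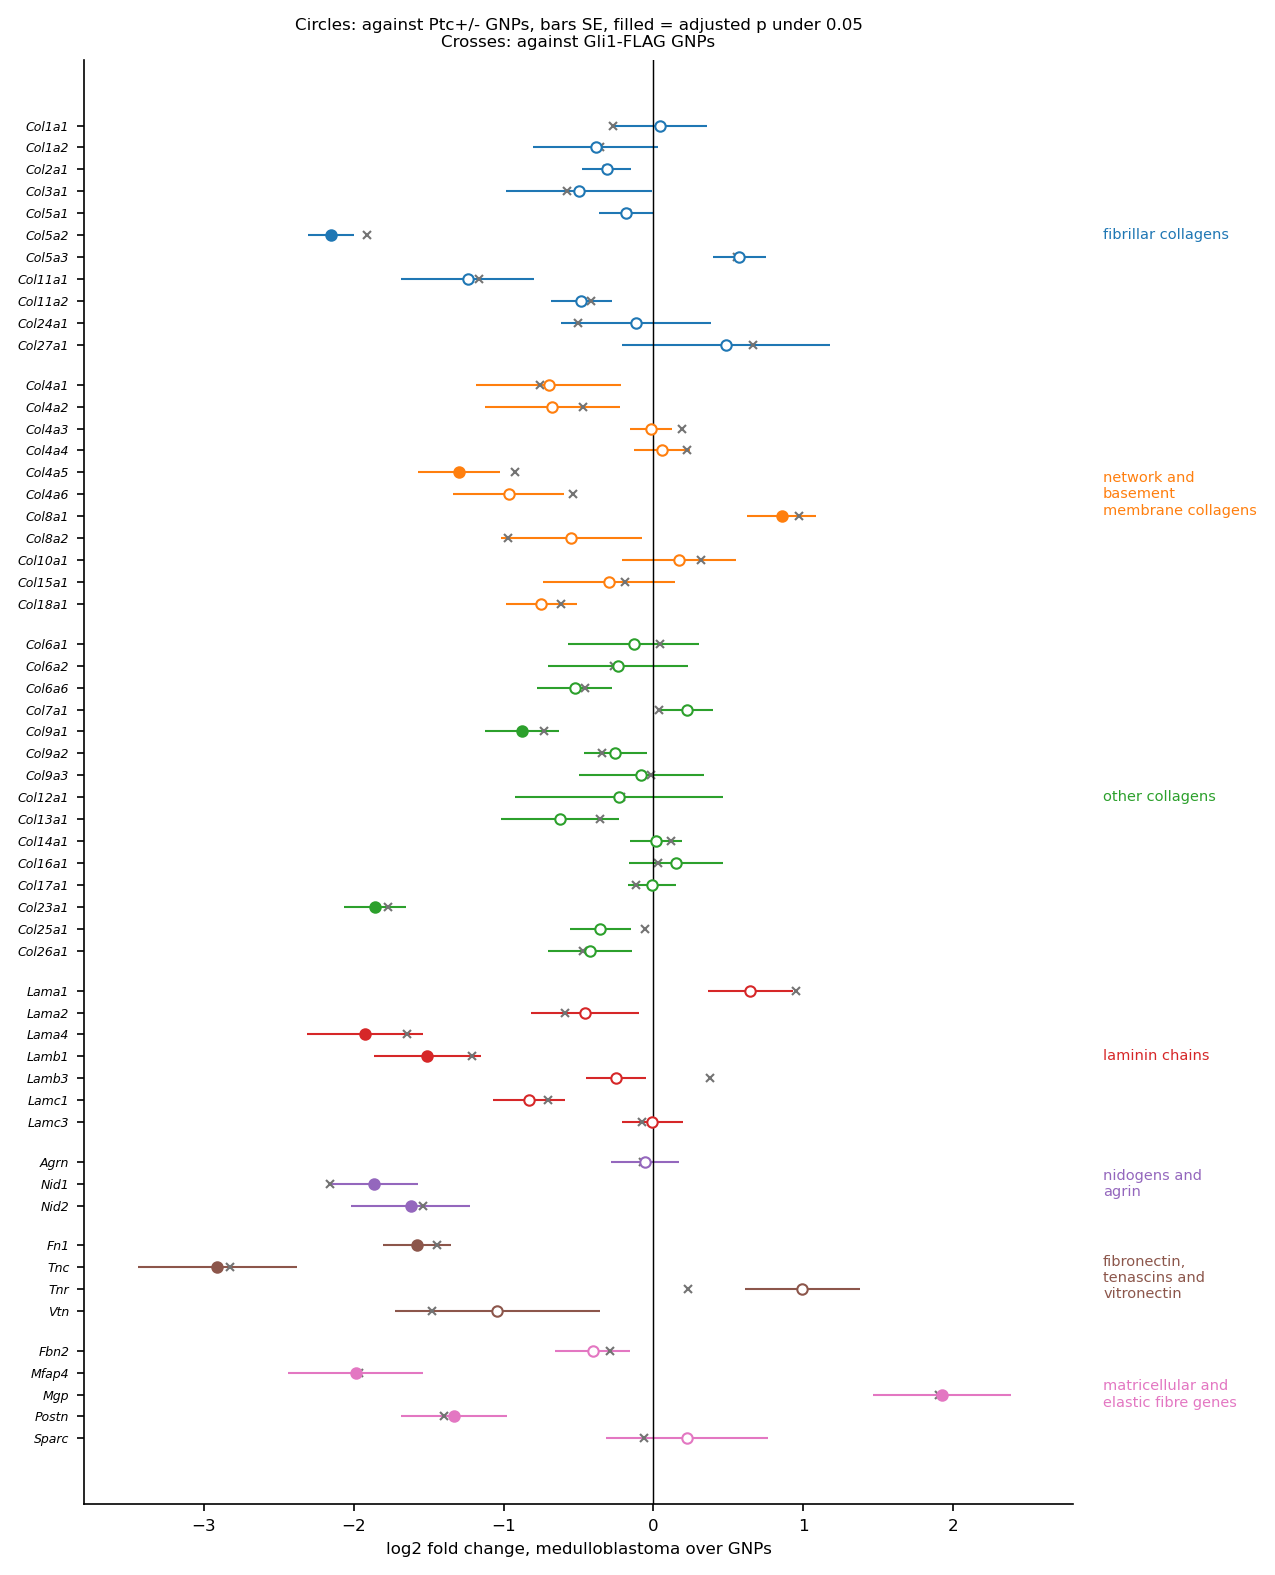
Log2 fold change (x axis) of each of the 56 matrix genes (y axis, by role) in medulloblastomas against Ptc+/- GNPs, with the SE as a bar and filled circles for the 14 genes past the threshold, and against Gli1-FLAG GNPs as crosses. The falls run from -0.88 for Col9a1 to -2.91 for Tnc, and the rises belong to Col8a1 and Mgp.

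The Ptc+/- GNP arrays differed from each other for matrix genes, and this bears on all that follows. Replicate 1 was more than 1 log2 unit above replicate 2 for 18 of the 56 genes (32.1%, against 2.81% of all rows), among them the fibroblast collagens Col1a1, Col1a2 and Col3a1, the basement membrane collagens Col4a1 and Col4a2, and Vtn. It was more than 1 unit below for 1, Col24a1 (1.79%, against 1.92%). The Gli1-FLAG arrays differed by more than 1 unit for 0 of the 56, and for 2.94% of all rows. Cell type markers moved with this difference. All 15 measured endothelial markers were higher on replicate 1, by a median of 1.23, and their summed linear level was 7494 there and 3019 on replicate 2. Markers of pericytes and smooth muscle summed to 2158 and 986, and markers of meningeal fibroblasts to 3145 and 1060, with the proteoglycan gene Dcn at 8.91 and 5.13. All 9 astrocyte markers were higher on replicate 1 too, by a median of 0.54, with sums of 5506 and 3770. Markers of GNPs went the other way, at 19021 and 20802. On the Gli1-FLAG arrays the endothelial sum was 4862 and 4885. The part of these cells in the matrix values was not tested.

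**Figure D2:**
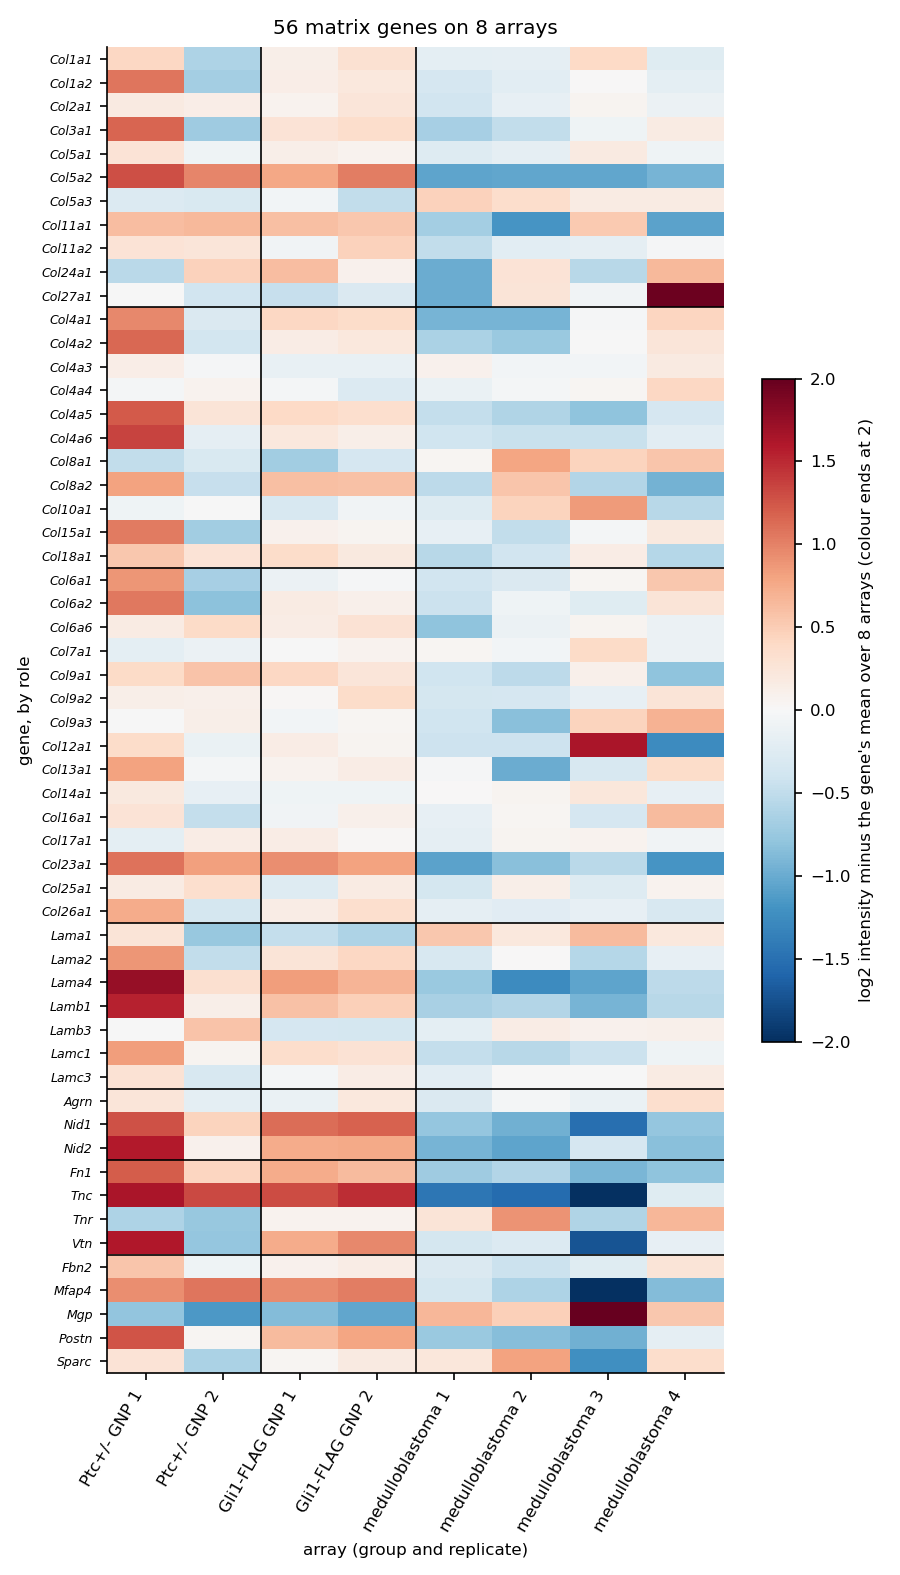
Level of each of the 56 genes (rows, by role, parted by lines) on each array (columns), as log2 intensity minus that gene's mean over 8 arrays, with red for higher and blue for lower. The Ptc+/- GNP 1 column is redder than the Ptc+/- GNP 2 column for most genes, as 43 of 56 were higher there, and the tumour columns are blue for Lama4, Lamb1, Nid1, Nid2, Fn1 and Tnc.

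Type 4 collagen forms the mesh of every basement membrane, and its most widespread chains are alpha 1 and alpha 2, encoded by Col4a1 and Col4a2. Col4a1 was at 8.35 and 7.09 in Ptc+/- GNPs, at 7.80 and 7.74 in Gli1-FLAG GNPs, and at 6.45, 6.46, 7.35 and 7.81 in tumours. Col4a2 stood at 8.84 and 7.32, at 7.84 and 7.90, and at 7.05, 6.95, 7.68 and 7.94. Both genes were thus low on medulloblastomas 1 and 2 and within the GNP range on medulloblastomas 3 and 4, and the groups overlapped. Neither passed (log2 fold change against Ptc+/- GNPs -0.70 ± 0.48, SE, adjusted p = 0.354, and -0.67 ± 0.45, adjusted p = 0.337).

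The pair stands head to head in the genome, and its shared promoter region is shown because the genes had the same order of arrays within each group except between medulloblastomas 1 and 2 and between the Gli1-FLAG arrays. Windows of 300 bases, from 250 before to 50 after the start of each gene, are from RefSeq on GRCm38.p6, a build other than mm8, which the submitters' processing notes name. They were found for 39 of the 56 genes. The starts of Col4a1 and Col4a2 lie 21 bases apart on opposite strands, and their windows share 78 bases. Capitals mark matches, on either strand, to CCAAT, to the GC box GGGCGG, to the TATA letters TATAAA or to GACCACCCA, the core bound by Gli factors. Windows of Nid1, Lamb1 and Tnc, which fell in tumours as described below, are printed with them for comparison. No matches overlapped in these windows.
Col4a1 (chr8:11312777-11313076, minus strand): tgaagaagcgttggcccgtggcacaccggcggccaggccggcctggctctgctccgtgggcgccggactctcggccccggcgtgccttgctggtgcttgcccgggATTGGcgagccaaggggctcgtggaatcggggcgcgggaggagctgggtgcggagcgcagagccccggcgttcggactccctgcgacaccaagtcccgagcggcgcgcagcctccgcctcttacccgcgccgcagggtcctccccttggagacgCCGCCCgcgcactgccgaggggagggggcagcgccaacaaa
Col4a2 (chr8:11312555-11312854, plus strand): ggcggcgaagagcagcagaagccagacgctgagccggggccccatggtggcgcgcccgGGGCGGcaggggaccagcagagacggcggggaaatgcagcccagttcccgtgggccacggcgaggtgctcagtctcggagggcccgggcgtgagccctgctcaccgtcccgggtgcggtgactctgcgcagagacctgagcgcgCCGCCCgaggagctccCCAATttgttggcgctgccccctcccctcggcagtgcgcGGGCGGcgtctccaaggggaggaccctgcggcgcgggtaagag
Nid1 (chr13:13437352-13437651, plus strand): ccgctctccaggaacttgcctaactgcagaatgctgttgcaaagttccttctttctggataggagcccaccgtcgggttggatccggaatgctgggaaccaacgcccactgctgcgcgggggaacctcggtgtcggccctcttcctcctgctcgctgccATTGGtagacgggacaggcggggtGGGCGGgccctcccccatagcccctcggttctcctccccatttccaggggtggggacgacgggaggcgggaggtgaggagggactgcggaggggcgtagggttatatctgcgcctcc
Lamb1 (chr12:31265043-31265342, plus strand): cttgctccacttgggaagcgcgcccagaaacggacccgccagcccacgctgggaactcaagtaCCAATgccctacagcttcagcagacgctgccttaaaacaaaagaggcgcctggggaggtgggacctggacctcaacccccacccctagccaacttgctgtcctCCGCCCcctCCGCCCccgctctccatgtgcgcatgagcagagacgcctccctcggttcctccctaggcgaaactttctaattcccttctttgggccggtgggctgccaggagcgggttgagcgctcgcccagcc
Tnc (chr4:64046966-64047265, minus strand): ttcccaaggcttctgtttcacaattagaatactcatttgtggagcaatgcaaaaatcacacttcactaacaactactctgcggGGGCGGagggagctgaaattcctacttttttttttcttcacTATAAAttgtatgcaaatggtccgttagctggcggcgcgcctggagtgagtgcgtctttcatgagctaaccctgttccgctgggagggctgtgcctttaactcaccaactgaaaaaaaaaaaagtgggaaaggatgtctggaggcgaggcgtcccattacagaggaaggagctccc
The Col4a1 window held 37 CpG pairs and that of Col4a2 33, against 10 in that of Tnc. The Tnc window was the 1 of these with the TATA letters, and the others each held the CCAAT box once. The GC box letters were found in 25 of the 39 windows (64.1%, against 35.9% of 27025 windows of all genes), the CCAAT box in 14 (35.9%, against 38.0%) and the TATA letters in 7 (17.9%, against 14.2%). GACCACCCA was found in 0 of the 39 and in 0.241% of all windows. The 27025 windows are not limited to genes on the arrays. The GC box match in the Col4a1 window and the last in that of Col4a2 are the same site in the shared bases. These are matches of letters in these windows only.

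Of the 11 network and basement membrane collagens 1 fell, 1 rose and 9 did not pass, where 8.92% of all rows fell and 7.54% rose. Col4a5, the X-linked chain of a mesh found in kidney, skin and brain surfaces, was at 6.66 and 5.70 in Ptc+/- GNPs, at 5.84 and 5.77 in Gli1-FLAG GNPs, and at 4.96, 4.84, 4.63 and 5.10 in tumours. The 4 tumours lay below every GNP array, and the gene fell 2.46-fold against Ptc+/- GNPs (log2 fold change -1.30 ± 0.27, SE; adjusted p = 0.022). Col8a1, a short-chain collagen of vessel walls and of the eye, stood at 3.77 and 3.97, at 3.57 and 3.93, and at 4.30, 5.06, 4.71 and 4.81. It rose by 0.86 ± 0.23 (adjusted p = 0.0446) from levels under 4.54, so the size of the rise is uncertain. Col18a1, the basement membrane collagen whose end fragment is endostatin, stood at 8.36 and 8.08, at 8.18 and 7.999, and at 7.25, 7.43, 7.97 and 7.23. All its tumour values were below both GNP groups, though its difference of -0.75 ± 0.24 missed the threshold (adjusted p = 0.0696), and without medulloblastoma 3 it was -0.92 (adjusted p = 0.0177). Col8a2, the partner chain of Col8a1, had the widest spread among tumours in this group, at 3.51, 4.58, 3.44 and 3.09, with 4.84 and 3.57 in Ptc+/- GNPs and 4.64 and 4.61 in Gli1-FLAG GNPs, mostly near background. Col4a3 and Col4a4 stayed between 4.39 and 5.08 on all arrays. The call of Col4a5 was lost without Ptc+/- GNP replicate 1 (log2 fold change -0.81; adjusted p = 0.146) or Gli1-FLAG GNP replicate 2 (0.0501), with arrays centred on their medians (0.065), with the arrays of the 2 groups only (0.05004) or with the replicate block (0.0576). That of Col8a1 was kept on leaving out medulloblastoma 1 but not on leaving out Ptc+/- GNP replicate 1 (0.25) or 2 (0.137), either Gli1-FLAG array (0.0744 and 0.0747) or medulloblastoma 2, 3 or 4 (0.0682, 0.0663 and 0.0714). Col8a1 also lost it with the arrays of the 2 groups only (0.0739), the replicate block (0.0672), an offset of 16 before log2 (0.0628) or a trended, robust eBayes (0.0625).

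Laminins are trimers of an alpha, a beta and a gamma chain. Laminin alpha 4, beta 1 and gamma 1 make up a laminin of blood vessels, while alpha 1 with the same partners makes the laminin of the meningeal surface. Lama4 was at 8.88 and 7.45 in Ptc+/- GNPs, at 7.97 and 7.81 in Gli1-FLAG GNPs, and at 6.39, 5.88, 6.09 and 6.62 in tumours. Lamb1 stood at 8.48 and 7.05, at 7.52 and 7.41, and at 6.28, 6.35, 6.0 and 6.37. Every tumour lay below every GNP array for both genes. Lama4 fell 3.79-fold (log2 fold change -1.92 ± 0.39, SE; adjusted p = 0.0199) and Lamb1 fell 2.85-fold (-1.51 ± 0.36; adjusted p = 0.0311). Lamc1, the gamma chain shared by most laminins, stood at 8.83 and 8.05, at 8.35 and 8.28, and at 7.52, 7.45, 7.57 and 7.91, also below every GNP array. Its difference of -0.83 ± 0.24 missed the threshold (adjusted p = 0.056) and passed without medulloblastoma 4 (0.0438) or with arrays centred on their medians (0.0452). Lama1 went the other way in value, at 7.11 and 6.10, at 6.37 and 6.24, and at 7.39, 7.06, 7.49 and 7.07. Its tumours lay above both Gli1-FLAG arrays but overlapped with Ptc+/- GNP replicate 1, and it did not pass (0.65 ± 0.29; adjusted p = 0.162). Lama2, the chain of muscle and of brain vessels, Lamb3, a chain of skin, and Lamc3 had fold changes of -0.46, -0.25 and -0.01 and did not pass. Without Ptc+/- GNP replicate 1 neither call was kept (Lama4 -1.18, adjusted p = 0.121; Lamb1 -0.77, adjusted p = 0.142). Lamb1 also lost its call without 1 Gli1-FLAG array or the other (0.0636 and 0.0633), medulloblastoma 1 (0.0643) or medulloblastoma 3 (0.0522), with the arrays of the 2 groups only (0.0641) and with the replicate block (0.0925).

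Nidogens clip the laminin and collagen networks together. Nid1 was at 9.34 and 8.51 in Ptc+/- GNPs, at 9.19 and 9.25 in Gli1-FLAG GNPs, and at 7.29, 7.10, 6.56 and 7.29 in tumours, with a gap of more than 1 unit between the lowest GNP array and the highest tumour. It fell 3.64-fold (log2 fold change -1.86 ± 0.29, SE; adjusted p = 0.0108). Nid2 stood at 8.97 and 7.47, at 8.13 and 8.14, and at 6.47, 6.34, 7.05 and 6.55, and fell 3.08-fold (-1.62 ± 0.40; adjusted p = 0.034). Agrn, which encodes the heparan sulphate proteoglycan agrin of brain capillaries and of the neuromuscular junction, stood at 8.69 and 8.26, at 8.32 and 8.66, and at 8.16, 8.42, 8.32 and 8.78 (-0.06 ± 0.23; adjusted p = 0.887). Its groups overlapped. The call of Nid1 ended when Ptc+/- GNP replicate 1 was left out (-1.43; adjusted p = 0.0976). Nid2 lost its call without that array (-0.85; 0.184), 1 Gli1-FLAG array or the other (0.0668 and 0.0669), or medulloblastoma 1, 2 or 4 (0.0738, 0.0616 and 0.053), with the arrays of the 2 groups only (0.0671) and with the replicate block (0.0633).

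**Figure D3:**
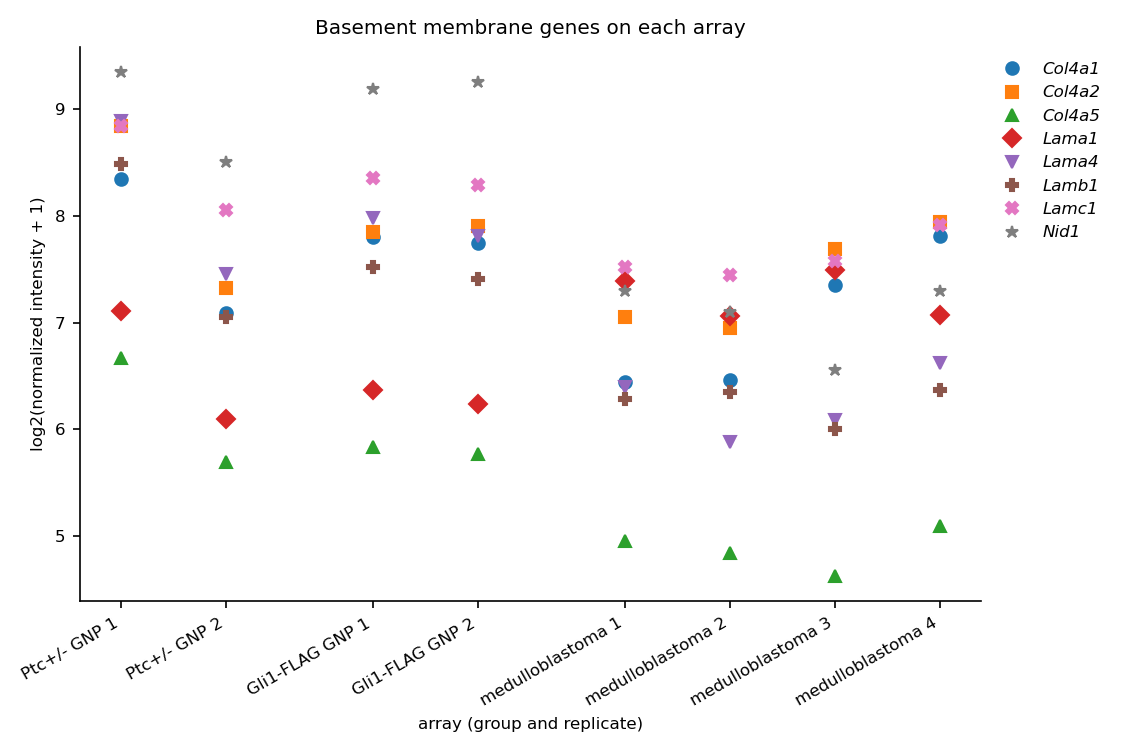
Level (y axis, log2(normalized intensity + 1)) of 8 basement membrane genes on each array (x axis), with a marker shape and colour per gene; heights of different genes are not comparable. Lama4, Lamb1 and Nid1 are lower on every tumour than on every GNP array, Lama1 is above both Gli1-FLAG arrays on every tumour, and Col4a1 and Col4a2 are within the GNP range on medulloblastomas 3 and 4.

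Vessel markers fell alongside these genes, where 8.92% of all rows fell and 7.54% rose against Ptc+/- GNPs. Of 15 measured endothelial markers 8 fell and 0 rose against Ptc+/- GNPs, with a median of -1.49, and their summed level was 1503 to 1834 in tumours. The vascular growth factor receptor gene Kdr (-3.02 ± 0.41, SE; adjusted p = 0.00751) and Tek, the angiopoietin receptor gene (-2.60 ± 0.43; adjusted p = 0.0119), fell, as did Pecam1 (-1.997 ± 0.30; adjusted p = 0.0096) and the junction gene Esam (-1.90 ± 0.34; adjusted p = 0.0139). The endothelial calls were not kept without Ptc+/- GNP replicate 1, which leaves a lone array in that group and few calls over all rows. No endothelial marker was at or under 4.54 on all tumour arrays. Of 10 measured pericyte and smooth muscle markers 0 fell and 0 rose, and their sum was 1049 to 1147 in tumours. The 4 lowest p-values of that list belonged to Pdgfrb (-0.98; adjusted p = 0.145), Rgs5 (-0.71; 0.162), Cspg4 (0.92; 0.084) and Anpep (-0.60; 0.168). Of 15 meningeal and perivascular fibroblast markers 0 fell and 1 rose, Pdgfra (1.16; adjusted p = 0.0183), a growth factor receptor gene that oligodendrocyte precursors also express. Slc22a6 (-0.89), Tbx18 (-1.15) and Ogn (-0.50) did not pass. The part of endothelial RNA in the lower laminin and nidogen values was not tested.

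**Figure D4:**
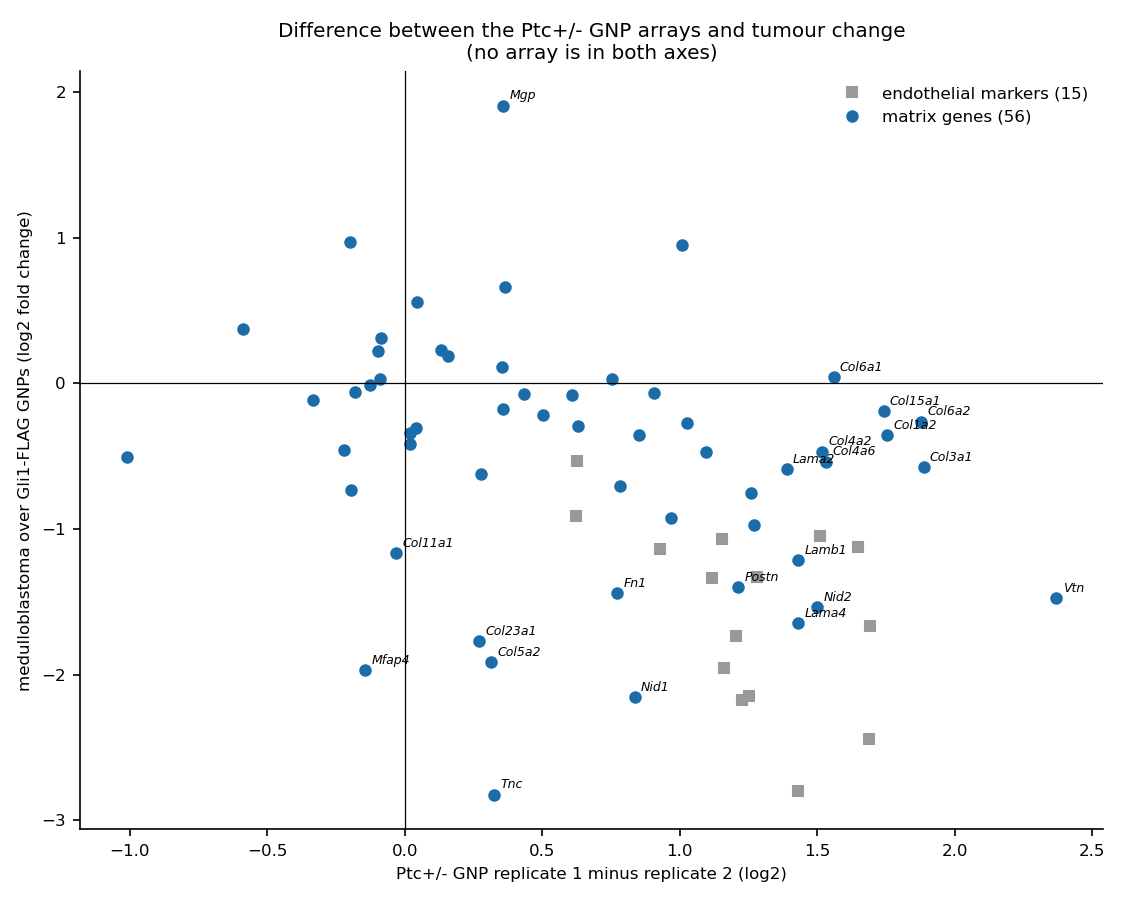
Log2 difference between Ptc+/- GNP replicates 1 and 2 (x axis) against the log2 fold change of medulloblastomas over Gli1-FLAG GNPs (y axis) for the 56 matrix genes (circles) and 15 endothelial markers (squares); no array enters both axes. Lama4, Lamb1 and Nid2 lie with the endothelial markers at lower right, while Tnc, Mfap4, Col5a2 and Col23a1 are low in tumours with Ptc+/- arrays within 0.5 units of each other.

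Fibronectin, the tenascins and vitronectin are adhesive glycoproteins. Fn1, which encodes fibronectin, was at 10.02 and 9.25 in Ptc+/- GNPs, at 9.56 and 9.44 in Gli1-FLAG GNPs, and at 8.10, 8.23, 7.90 and 8.0 in tumours, and fell 2.98-fold (log2 fold change -1.58 ± 0.23, SE; adjusted p = 0.00842). Its tumour arrays were close together, with an SD of 0.14 (n = 4), and all lay below every GNP array. Tnc, which encodes tenascin C of glia and growing neural tissue, stood at 9.68 and 9.35, at 9.35 and 9.51, and at 6.59, 6.50, 5.54 and 7.80. It fell 7.52-fold (-2.91 ± 0.53; adjusted p = 0.0152), with the lowest tumour level on medulloblastoma 3 and the highest on medulloblastoma 4. Tnr, the tenascin of oligodendrocytes and perineuronal nets, stood at 6.31 and 6.17, at 7.0 and 7.0, and at 7.18, 7.83, 6.33 and 7.60. It was higher in 4 of 4 tumours than in Ptc+/- GNPs but did not pass (0.99 ± 0.38; adjusted p = 0.118), and without medulloblastoma 3 it did (1.31; adjusted p = 0.0149). Vtn, a plasma adhesion protein gene that brain pericytes express, stood at 9.91 and 7.54, at 9.05 and 9.27, and at 7.97, 8.05, 6.59 and 8.15. The Ptc+/- arrays were further apart for Vtn than for the other 55 genes, 3 tumours lay between them and medulloblastoma 3 below both, and Vtn did not pass (-1.04 ± 0.68; adjusted p = 0.327). The call of Fn1 ended when Ptc+/- GNP replicate 1 was left out (-1.19; adjusted p = 0.0668), and Tnc without replicate 1 (-2.72; 0.124) or 2 (-3.05; 0.0743).

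Astrocyte markers varied in the direction of Tnc on medulloblastoma 3. The summed level of 9 astrocyte and Bergmann glia markers was 317 on that array and 2287 to 4044 on the other tumours, against 3770 to 6170 on the GNP arrays. The water channel gene Aqp4 was at 4.63 there and at 7.91, 9.09 and 7.49 on medulloblastomas 1, 2 and 4. Of the 9 markers 0 passed against Ptc+/- GNPs (median -2.11), with the lowest p-values for Aldh1l1 (-2.44; adjusted p = 0.0612), Aqp4 (-2.77; 0.115), Gja1 (-2.47; 0.121) and Gdf10 (-2.28; 0.184). The part of glial RNA in the levels of Tnc was not tested.

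**Figure D5:**
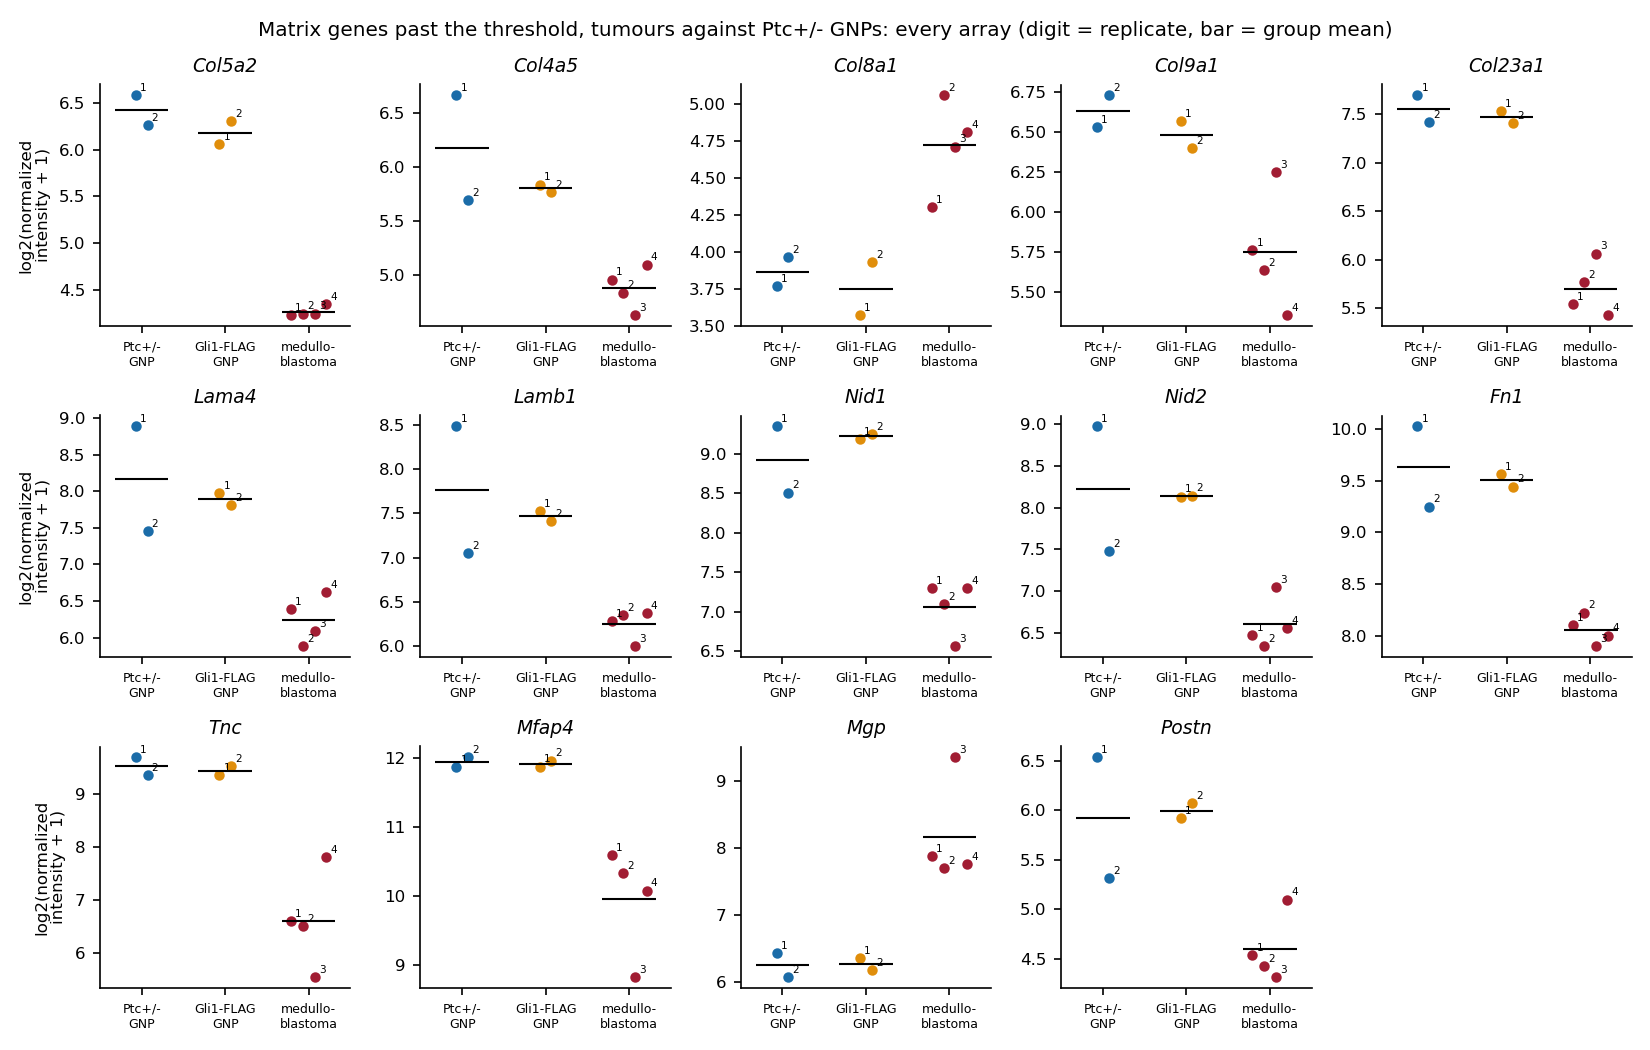
Level (y axis, log2(normalized intensity + 1), scale set per gene) of the 14 matrix genes past the threshold against Ptc+/- GNPs, on every array of the 3 groups (x axis); digits give the replicate and bars the group mean. For all 14 genes the tumour points lie wholly above or wholly below the points of both GNP groups, and medulloblastoma 3 is the highest for Mgp and the lowest for Tnc and Mfap4.

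Elastic fibre and matricellular genes split between falls and 1 rise. Mfap4, a microfibril-associated gene, was at 11.87 and 12.01 in Ptc+/- GNPs, at 11.88 and 11.97 in Gli1-FLAG GNPs, and at 10.59, 10.33, 8.82 and 10.08 in tumours. It fell 3.96-fold (log2 fold change -1.99 ± 0.45, SE; adjusted p = 0.0276), and its GNP arrays lay close together. Mgp, whose product keeps soft tissue from calcifying and binds BMPs, stood at 6.42 and 6.06, at 6.35 and 6.17, and at 7.88, 7.69, 9.35 and 7.75. It rose by 1.93 ± 0.46 (adjusted p = 0.032), and every tumour stood above every GNP array. Postn, which encodes the fibroblast protein periostin, stood at 6.53 and 5.32, at 5.92 and 6.07, and at 4.54, 4.43, 4.31 and 5.10, and fell 2.52-fold (-1.33 ± 0.36; adjusted p = 0.0435). Its levels on medulloblastomas 1, 2 and 3 were near or under the background guide of 4.54, so the fold is uncertain. Sparc, the collagen-binding glycoprotein gene of vessels and glia, stood at 10.23 and 9.32, at 9.99 and 10.13, and at 10.19, 10.76, 8.73 and 10.31. The groups overlapped, with medulloblastoma 3 the lowest of all arrays (0.22 ± 0.54; adjusted p = 0.808). Fbn2, a fibrillin gene, did not pass (-0.41; adjusted p = 0.295). Mfap4 and Mgp lost their calls without Ptc+/- GNP replicate 1 (0.155 and 0.16) or 2 (0.132 and 0.163) or either Gli1-FLAG array (0.0565 and 0.0572; 0.0638 and 0.0638), and Mgp without medulloblastoma 1 (0.0569), and both with the arrays of the 2 groups only (0.0565 and 0.0643); their fold changes stayed between -2.16 and -1.58 and between 1.54 and 2.13. Postn kept its call on leaving out Ptc+/- GNP replicate 2 or medulloblastoma 4, and lost it without Ptc+/- GNP replicate 1 (-0.72; 0.274), 1 Gli1-FLAG array or the other (0.0796 and 0.0793), or medulloblastoma 1, 2 or 3 (0.0876, 0.0784 and 0.0727). Its call also ended with arrays centred on their medians (0.113), the arrays of the 2 groups only (0.08002) and the replicate block (0.0775).

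Fibrillar collagens are the rope-like collagens of connective tissue. Of 11, 1 fell, 0 rose and 10 did not pass, where 8.92% of all rows fell and 7.54% rose. Col5a2, a chain that nucleates thin fibrils, was at 6.58 and 6.26 in Ptc+/- GNPs, at 6.06 and 6.31 in Gli1-FLAG GNPs, and at 4.23, 4.25, 4.25 and 4.35 in tumours. It fell 4.45-fold (log2 fold change -2.15 ± 0.15, SE; adjusted p = 0.00104) to levels under 4.54, which by that guide cannot be told from background, so the fold is uncertain. Its call was kept on leaving out each of the 8 arrays in turn, with adjusted p up to 0.0226. The type 1 collagen gene Col1a2 stood at 8.18 and 6.43, at 7.24 and 7.31, and at 6.77, 6.89, 7.11 and 6.90, so that the tumours lay between the Ptc+/- arrays. Its difference was -0.39 ± 0.42 (adjusted p = 0.567), 0.47 without Ptc+/- GNP replicate 1 (adjusted p = 0.264) and -1.25 without replicate 2 (adjusted p = 0.0402). Col1a1 and Col3a1 behaved alike in value, at 7.47 and 6.45 and at 8.24 and 6.36 in Ptc+/- GNPs, with tumours at 6.83 to 7.45 and 6.41 to 7.24. Col27a1, a fibrillar collagen of cartilage, ranged most widely, at 5.22, 6.48, 6.15 and 8.18 in tumours beside 6.20 and 5.84 and 5.76 and 5.92 in GNPs. Col11a1, also of cartilage, was between 7.51 and 7.63 on the 4 GNP arrays and at 6.30, 5.79, 7.49 and 5.91 in tumours. It did not pass (-1.24 ± 0.44; adjusted p = 0.0976), but did without medulloblastoma 3 (-1.62; 0.00695). Col5a3 was at 6.06 to 6.36 in tumours, above all GNP arrays (0.57 ± 0.17; adjusted p = 0.063), and passed with arrays centred on their medians (0.94; 0.0161).

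The remaining 15 collagens are transmembrane, fibril-associated, beaded and anchoring types. Col23a1, a transmembrane collagen, was at 7.69 and 7.42 in Ptc+/- GNPs, at 7.53 and 7.41 in Gli1-FLAG GNPs, and at 5.54, 5.77, 6.06 and 5.43 in tumours. It fell 3.63-fold (log2 fold change -1.86 ± 0.21, SE; adjusted p = 0.00406), with more than 1 unit between the groups. Col9a1, of the cartilage fibril surface, stood at 6.53 and 6.73, at 6.57 and 6.40, and at 5.76, 5.64, 6.25 and 5.36, and fell 1.84-fold (-0.88 ± 0.24; adjusted p = 0.0493). Col9a3, a partner chain of Col9a1, did not follow it, at 8.22 and 8.34, at 8.16 and 8.26, and at 7.82, 7.38, 8.67 and 8.92 (-0.08 ± 0.41; adjusted p = 0.911). Col12a1 stood at 7.72 on medulloblastoma 3 and at 5.67, 5.68 and 4.84 on medulloblastomas 1, 2 and 4, with GNPs at 5.96 to 6.46 (-0.23 ± 0.70; adjusted p = 0.847). The beaded type 6 genes Col6a1 and Col6a2 were at 7.15 and 5.59 and at 6.80 and 4.92 in Ptc+/- GNPs, and the tumours, at 5.87 to 6.80 and 5.32 to 6.0, lay between or reached into that range. Across these 15 genes 2 fell, 0 rose and 13 did not pass, the latter with log2 fold changes from -0.62 to 0.22. Over all rows 8.92% fell and 7.54% rose. The call of Col23a1 ended when Ptc+/- GNP replicate 1 was left out (-1.67; adjusted p = 0.0566). Col9a1 kept its call on leaving out medulloblastoma 3 and lost it without Ptc+/- GNP replicate 1 (0.195) or 2 (0.222), 1 Gli1-FLAG array or the other (0.0905 and 0.0899), or medulloblastoma 1, 2 or 4 (0.0908, 0.0819 and 0.0575). Its call also ended with arrays centred on their medians (0.0928), the arrays of the 2 groups only (0.0909) and a trended, robust eBayes (0.0517).

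Between the GNP genotypes, which also differed in Y-linked signal, no matrix gene passed. Of 56 genes 0 rose and 0 fell in limma, as for 0 of 16317 rows (0.0% each way), and at an unadjusted p under 0.05 there was 1 gene (1.79%, against 3.22% of all rows), the laminin gene Lamb3. It was at 4.73 and 5.32 in Ptc+/- GNPs and at 4.40 and 4.39 in Gli1-FLAG GNPs (log2 fold change -0.63; adjusted p = 1.0). The levels of Lamb3 in Gli1-FLAG GNPs were under the guide of 4.54 and by it cannot be told from background. The other alternatives also gave 0. The Y-linked Eif2s3y and Kdm5d did not pass either, at 7.91 to 9.01 in Ptc+/- GNPs and at most 4.54 in Gli1-FLAG GNPs. The spread used for them includes the tumours, at 4.55 on medulloblastoma 3 and at 7.39 to 8.97 on the others. Their result is therefore no guide to matrix genes. With the arrays of the 2 groups only, 1 of 16317 rows rose and 3 fell (0.00613% and 0.0184%). With 2 arrays per group, a lack of calls does not show that matrix genes were unchanged. Fold changes of the 56 ran from -0.63 to 0.76, the latter that of Tnr. The Gli1-FLAG arrays lay wholly above the Ptc+/- arrays for 2 genes and wholly below for 3, or 3.57% and 5.36%, where 22.3% and 24.0% of all rows did so. For 33 genes (58.9%) both Gli1-FLAG arrays lay within the range of the Ptc+/- arrays, which held for 18.3% of all rows. These counts depend on how far apart the Ptc+/- arrays were. Of the 18 genes with replicate 1 more than 1 unit above replicate 2, all 18 had both Gli1-FLAG arrays within that range. The counts therefore do not show that the genotypes were alike for matrix genes.

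Set against Gli1-FLAG GNPs, which share the tagged Gli1 with the tumours, 8 matrix genes fell and 2 rose (14.3% and 3.57%, against 5.63% and 4.65% of all rows). This comparison uses the same tumour arrays as the one against Ptc+/- GNPs, so the values stand side by side and neither is a repeat of the other. Tnc fell 7.09-fold, Nid1 4.46-fold, Mfap4 3.91-fold, Col5a2 3.76-fold, Col23a1 3.41-fold, Lama4 3.13-fold, Fn1 2.72-fold and Postn 2.64-fold, with adjusted p from 0.00129 for Col5a2 to 0.0496 for Postn. Mgp rose by 1.91 ± 0.46 (adjusted p = 0.0433) and Col8a1 by 0.97 ± 0.23 (adjusted p = 0.0413). Nid2 (-1.54 ± 0.40; adjusted p = 0.0512), Lamb1 (-1.21 ± 0.36; 0.0735), Col4a5 (-0.92 ± 0.27; 0.0738) and Lama1 (0.95 ± 0.29; 0.0782) missed the threshold, and each passed without either Ptc+/- array (adjusted p from 0.0221 to 0.0485). All tumours lay below both Gli1-FLAG arrays for 24 genes and above for 6, or 42.9% and 10.7%, where 21.4% and 19.6% of all rows did so. At an unadjusted p under 0.05 there were 19 genes (33.9%, against 28.2% of all rows). Without Gli1-FLAG GNP replicate 1 or 2, 1 gene fell, Col5a2 (0.184% and 0.221% of all rows), and 0 rose (0.196% and 0.215%), which puts the other calls above an adjusted p of 0.05 (0.0733 for Col23a1 to 0.309 for Col8a1). Falls numbered 5 without medulloblastoma 1 or 2 (2.55% and 4.38% of all rows), where Lama4 (0.0772 and 0.0694) and Postn (0.0983 and 0.0866) were lost, Tnc (0.0549) without the former and Mfap4 (0.0507) without the latter. Lama4 (0.0652) and Postn (0.0786) were also lost without medulloblastoma 3 and Mfap4 (0.0548) without medulloblastoma 4. Mfap4 and Mgp were lost without Ptc+/- GNP replicate 1 (0.0647 and 0.0754) or 2 (0.0671 and 0.0751), and Mgp without medulloblastoma 1 (0.075) or 2 (0.0503). Col8a1 kept its call without medulloblastoma 1 and lost it without each of the other 7 arrays (0.0611 to 0.309).

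Tumours varied among themselves. The 4 tumour arrays spread over more than 1 log2 unit for 15 of the 56 genes (26.8%, against 28.6% of all rows), most for Col27a1 (2.95), Col12a1 (2.88), Tnc (2.27) and Sparc (2.03). Laminins and nidogens were outside this set, with their widest ranges at 0.74 for Lama4 and 0.73 for Nid1. Medulloblastoma 3 was the highest for Mgp, Col12a1, Col1a1 and Col11a1 and the lowest for Tnc, Mfap4, Vtn and Sparc.

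Genes of collagen synthesis, matrix receptors and other matrix proteins were read from lists beside these. Against Ptc+/- GNPs 8.92% of all rows fell and 7.54% rose. Of 22 measured enzymes and chaperones of collagen, 3 fell and 0 rose against Ptc+/- GNPs (median -0.27). They were Pcolce2, which encodes an enhancer of procollagen cleavage (-1.65 ± 0.25, SE; adjusted p = 0.0094), P4hb, the beta subunit gene of prolyl hydroxylase (-0.71 ± 0.14; 0.0179), and P4ha3, an alpha subunit gene of it (-0.88 ± 0.24; 0.0443), while P3h2 did not pass (0.79; 0.0557). Of 27 receptors 4 fell and 1 rose (median -0.01). The integrin genes Itga6, the laminin-binding chain of GNPs and endothelium (-1.91 ± 0.29; adjusted p = 0.01002), Itga5, the fibronectin-binding chain (-1.28 ± 0.24; 0.0162), and Itga2, a collagen-binding chain (-1.22 ± 0.25; 0.0205), fell, and Ddr1, a collagen receptor kinase gene, rose (0.73 ± 0.14; 0.0188). The beta chain gene Itgb1, the remaining fall, was named after its values were seen (-0.84; adjusted p = 0.0462). Of 61 other matrix genes 11 fell and 6 rose (median 0.02). Smoc1 (3.60 ± 0.17; adjusted p = 0.000563), a basement membrane glycoprotein gene, rose, while the matricellular Ccn1 (-2.93 ± 0.23; 0.00139), the axon guidance gene Slit2 (-2.05 ± 0.16; 0.00118) and the growth factor-binding Ltbp1 (-1.19 ± 0.13; 0.00412) fell. Without Ptc+/- GNP replicate 1, which leaves a lone array in that group, the enzymes and receptors held no call and the other matrix genes few. Few of all rows passed in that fit.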

How the data were processed

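RNA of 8 samples was hybridised to Affymetrix arrays, 1 array each. The deposited table holds linear intensity values, 1 row per transcript cluster; array medians differed, so it was treated as not normalized between arrays. The build given in the submitters' processing notes is mm8; how probes were summarised and background removed is not given in the sources used here. Here 1 value under 0 was set to 0, arrays were quantile normalized, and log2(value + 1) was fitted in limma 3.58.1 (R 4.3.3) with a mean per group. P-values were two-sided and adjusted by Benjamini-Hochberg over 16317 rows, with a threshold of 0.05. Symbols came from the platform annotation (14551 rows had 1 symbol, 1146 several and 620 none). The labels call replicates biological but name no animals, so p-values measure the spread between these samples, and the small number of arrays limits precision. The fit was tested on simulated data.

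Per-array values were given for genes past the threshold in any comparison and, per role, for the gene with the highest mean and that with the widest range among tumours; from other lists, up to 4 genes with the lowest p were named. Other genes were chosen after their values were seen. The rule for the 56 genes uses names alone, but it and the lists were chosen with earlier results of these data known. Alternatives were median centring, the 2 groups' arrays only, a replicate block, a filter on dim rows, an offset of 16, a trended and robust eBayes, array weights, and leaving out each array.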

Additional observations from a re-analysis of the deposited data

Results flagged for a closer look

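Among the 4 tumours, 1 array stood apart from the other 3 for 4 of the 56 genes (7.14%), by a gap to the nearest of them past Dixon's critical value. Chance flags about 1 in 20 groups, which is near this share. The same count over all rows was not made. Neither the number of flags nor the arrays they fell on can therefore be called particular to matrix genes. Col1a1 was at 7.45 on medulloblastoma 3 and at 6.83 to 6.88 on the other tumours. Mgp was at 9.35 on the same array and at 7.69 to 7.88 on the others. Vtn was at 6.59 on that array and at 7.97 to 8.15 on the others. Col5a2 was at 4.35 on medulloblastoma 4 and at 4.23 to 4.25 on the others, all under the background guide of 4.54. Of the 4 flags 3 fell on medulloblastoma 3, the tumour array with the lowest sum of astrocyte markers, 317, and the 1 tumour with Y-linked Eif2s3y and Kdm5d near background, both at 4.55 (on the others 7.39 to 8.97). Their part in these values was not tested.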

How the results depend on the processing

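Against Ptc+/- GNPs, 12 falls and 2 rises became 6 and 0 with the arrays of the 2 groups only, and rises were 1 with the offset of 16 or the trended, robust eBayes (8.57% and 8.56% of all rows). The filter on dim rows kept 18 of the 56 genes and gave 1 rise (14.6% of rows kept); Col8a1 was then not fitted, and all 9 calls that were fitted were kept. Leaving out each array gave 1 to 12 falls and 0 to 2 rises. Against Gli1-FLAG GNPs, 8 falls became 13 with array weights, as falls over all rows went from 5.63% to 11.8%, and 2 rises became 1 with the 2 groups only (2.26% of all rows), the replicate block, the dim-row filter (Col8a1 again not fitted), the offset of 16 or the trended eBayes; leaving out each array gave 1 to 10 falls and 0 to 1 rises. Between the GNP genotypes every alternative gave 0. No called gene changed sign. With the replicate block, which leaves out medulloblastomas 3 and 4, falls and rises were 9 and 2 against Ptc+/- GNPs (6.86% and 5.52% of all rows). Against Gli1-FLAG GNPs they were 6 and 1 (3.7% and 2.83%). Deviations of same-numbered samples had correlations of -0.073 to 0.009 over rows. In a group of 2 arrays the deviations mirror each other, so these values cannot tell whether the numbers pair samples. Averaging rows of a symbol changed no matrix gene, each having 1 row. The causes of these changes were not tested. Groups of 2 arrays, 1 of them apart, limit all calls against GNPs, and levels near 4.54 cannot be told from background by the guide used here.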

Other observations

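Markers of other cell types, from the same lists, also differed between tumours and Ptc+/- GNPs, where 8.92% of all rows fell and 7.54% rose. Of 12 microglia and macrophage markers 4 rose and 0 fell in limma, the complement genes C1qa (log2 fold change 1.64; adjusted p = 0.0215), C1qb (2.04; 0.0127) and C1qc (2.00; 0.0138) and the lysosomal gene Cd68 (2.04; 0.0104), with summed levels of 3610 to 8372 in tumours and 1721 to 2183 in GNPs. Of 8 oligodendrocyte lineage markers 3 rose and 0 fell, with a median of -0.66. Those that rose were Olig1 (2.39; adjusted p = 0.0139), Olig2 (1.59; 0.0148) and Cspg5 (2.15; 0.0279), all expressed in precursors, while the myelin genes Mag (-2.03; adjusted p = 0.237), Cnp (-1.18), Mog (-1.05), Mobp (-0.83) and Mbp (-0.49) did not pass. Of 9 GNP markers 4 rose and 1 fell. Those that rose were Atoh1 (2.09; adjusted p = 0.008), Gli1 (1.29; 0.00666), Mycn (0.79; 0.0183) and Barhl1 (0.94; 0.0214), while Pax6 fell (-1.375; 0.0373). Neurod1 (-1.08; 0.0527), Zic2 (-0.44), Ccnd2 (0.19) and Zic1 (0.04) did not pass. The tumours, like the Gli1-FLAG GNPs, carry the tagged Gli1. Gli1 was 0.83 higher in Gli1-FLAG than in Ptc+/- GNPs, which did not pass. Tumours over Gli1-FLAG GNPs stood at 0.47 (adjusted p = 0.127). The part of the tagged form in the Gli1 signal was not tested. Of 5 choroid plexus markers 0 passed, and of 3 blood markers Alas2 fell (-1.24; adjusted p = 0.0263).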
